A study of Danio rerio with 12 samples.

Results

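The Sox and Fox genes were read out in RNA of whole zebrafish embryos, as the rows of the deposited count table whose symbol is sox or fox followed by a family number or letter and number. The rule gave 73 rows, 24 Sox and 49 Fox, of 15265 in the table, and 63 of them (21 Sox and 42 Fox) had enough counts to be tested. Polyadenylated RNA from pools of 30 to 50 embryos was sequenced, 3 libraries in each of 4 groups. The groups were miR-34a-/- embryos exposed to 1 µM camptothecin (CPT), miR-34a-/- embryos exposed to DMSO, wild-type embryos exposed to 1 µM CPT and wild-type embryos exposed to DMSO. Exposure lasted 4 h, and the embryos are labelled as 28 hours post fertilisation (hpf). CPT is a topoisomerase I poison that breaks DNA, and miR-34a is a microRNA that p53 induces in vertebrates. The labels give 0.005% DMSO for the controls, whereas 1 µM CPT from the stated 2 mM stock in DMSO would bring 0.05%, so the amount of vehicle may differ between the CPT and DMSO groups and cannot be told apart from the drug. No label ties replicates to separate clutches or days, and the spread behind the p-values may therefore be technical in part. Neither the wild-type strain nor the making of the mutant line is described in the labels.

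Sox proteins bind DNA through an HMG box that bends it, and Fox proteins through a winged-helix forkhead domain. Both families are transcription factors that set cell identity in the embryo: SoxB1 factors hold neural progenitors in a dividing state, SoxC factors act as neurons differentiate, SoxE factors direct neural crest and cartilage, and SoxF factors direct endoderm and vessels. Among Fox factors, FoxA opens chromatin in endoderm and floor plate, FoxD3 acts in neural crest, FoxI1 in ear and ionocyte precursors, FoxJ1 in cells with motile cilia, FoxM1 at the entry into mitosis, and FoxO under stress and low insulin signalling. Many of these genes exist as a and b duplicates in zebrafish, from a genome duplication in teleost fish.

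Library totals ran from 13.5 to 27.9 M counts, and the Sox and Fox rows held 0.295% to 0.403% of each library. The row of the mutated gene, listed as mir34, had 0 counts in all 6 mutant libraries, 9, 9 and 32 counts in wild-type CPT libraries and 0, 1 and 0 counts in wild-type DMSO libraries. With so few counts in DMSO embryos, the row separates the genotypes only under CPT. Several markers of the labelled whole embryo were present in every library, among them the neuronal elavl3 (81.1 to 155 CPM), the muscle actin actc1b (5609 to 11375 CPM), the embryonic globin hbae3 (1367 to 2132 CPM), the lens crystallin cryba2a (35.1 to 113 CPM) and the endothelial cdh5 (4.84 to 23.0 CPM). The erythroid gata1a was listed at 0 in all 12 libraries and the muscle light chain mylpfa stayed at 0.0644 to 1.23 CPM. Among epidermal markers krt4 was high (2436 to 6033 CPM), but krt5 (0.794 to 3.13 CPM) and cldni (0 to 0.587 CPM) were low. The liver and gut markers fabp10a (0 to 0.149 CPM) and fabp2 (0.0425 to 0.368 CPM) were low as well. CPM are counts scaled to the same library size with TMM factors, which adjust for differences in library composition. The 3 wild-type CPT libraries had the lowest TMM factors, 0.835 to 0.962, against 1.01 to 1.09 in the other 9.

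CPT changed most of the tested Sox and Fox genes, in both directions. In mutants 18 rose and 26 fell, 69.8% of 63, and in wild-type embryos 21 rose and 24 fell, 71.4% (edgeR quasi-likelihood test, Benjamini-Hochberg adjusted p under 0.05). Among all 11866 genes tested, 28.5% were called higher and 31.7% lower in mutants, and 29.1% higher and 31.8% lower in wild-type embryos, 60.2% and 60.8% in either direction. The members' shares were 28.6% higher and 41.3% lower in mutants, and 33.3% higher and 38.1% lower in wild-type embryos. In mutants this was near the share of all genes for rises and above it for falls. Both wild-type shares were somewhat above those of all genes, and which was larger changed with the fit. Without wild-type CPT library 1, 24 of 64 tested members rose and 19 fell there. Without a filter on low counts, 25 of 71 rose and 21 fell. Changes of at least 2-fold were called upward in 10 of 63 members and downward in 14 (22.2%) in mutants, beside 7.64% and 16.5% of all genes. In wild-type embryos they were called upward in 10 of 63 and downward in 11 (17.5%), beside 6.61% and 16.9% of all genes. At this size the rises were above the share of all genes in both genotypes, and the falls above it in mutants and near it in wild-type embryos. In 4 members the filter on low counts was met with the libraries of 1 treatment alone, CPT for sox32, foxp3a and foxb1b and DMSO for foxn1. Of these, sox32 is among the calls and the 2-fold rises in both genotypes, and foxp3a in mutants. The filter fixed the direction of these calls, so they give no support to the larger share of 2-fold rises. CPT and DMSO libraries did not overlap in 69.8% of the tested members in mutants and 73.0% in wild-type embryos, beside 66.1% and 64.3% of all genes, so that a lack of overlap is common in these data. The median log2 fold change of the members was -0.14 in mutants and 0.095 in wild-type embryos, beside -0.0064 and -0.0025 over all genes. When libraries were scaled by their totals instead, the wild-type counts were 15 higher and 28 lower, so that 34.9% of the calls were higher in place of 46.7%, and the median log2 fold change of all genes was -0.23. In whole-embryo RNA, fewer cells of a type and less RNA per cell cannot be told apart, and this holds for every change described here.

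Most of the response was shared by the genotypes. Of the 63 tested members, 16 rose and 22 fell in both, 0 were called in opposite directions, 6 were called in mutants only and 7 in wild-type embryos only, and 12 were called in neither. The 38 shared calls were 86.4% of the mutant calls and 84.4% of the wild-type calls. Over all genes tested the corresponding shares were 80.3% and 79.5%.

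**Figure D1:**
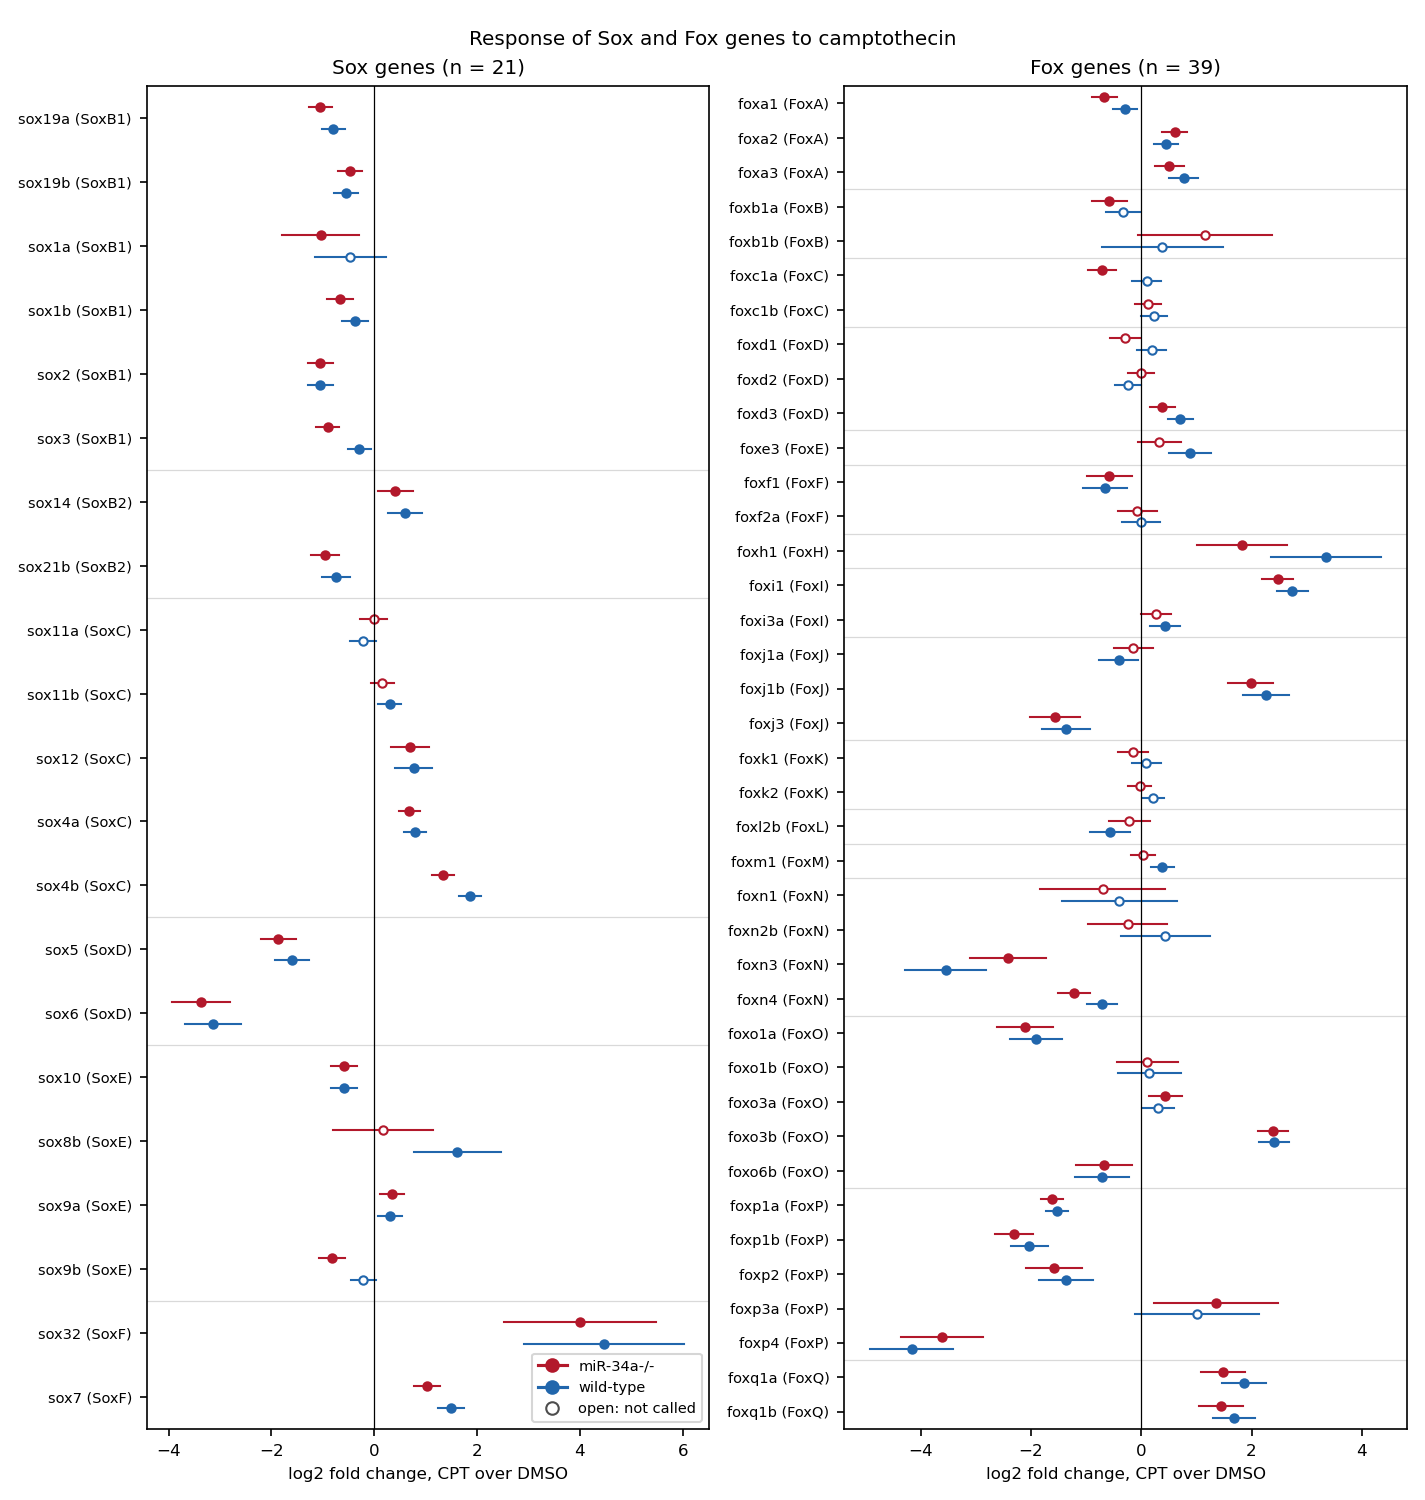
Log2 fold change of CPT over DMSO for 21 Sox (left) and 39 Fox genes (right) of those tested. Values are for miR-34a-/- (red, upper of each pair) and wild-type embryos (blue, lower of each pair). The 95% intervals are approximate and were computed from the edgeR fold changes and their SE. Filled points are called at an adjusted p under 0.05 and open points are not. SoxB1, SoxD and 4 of 5 FoxP genes lie left of 0, and sox32, foxi1 and foxo3b lie farthest right in mutants, with foxh1 among them in wild-type embryos.

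The SoxB1 genes, which maintain neural progenitors, fell. All 6 tested members were lower in mutants and 5 of 6 in wild-type embryos, with medians of -0.97 and -0.51. sox2 had 109, 94 and 97.2 CPM in CPT-treated mutants, against 195, 216 and 211 CPM in DMSO mutants. Wild-type levels of sox2 were 73, 99.1 and 106 CPM with CPT, against 191, 191 and 195 CPM with DMSO. Every CPT library lay below every DMSO library, and the log2 fold change of sox2, a factor shared by pluripotent and neural stem cells, was -1.05 ± 0.12 in mutants and -1.05 ± 0.12 in wild-type embryos (SE, edgeR adjusted p = 1.63e-07 and 1.47e-07). sox19a had 43.2, 40.8 and 36.4 CPM in CPT-treated mutants, against 77.5, 79.6 and 93.2 CPM in DMSO mutants. Wild-type levels of sox19a were 41.5, 50.8 and 43.6 CPM with CPT, against 79.9, 76.4 and 79.7 CPM with DMSO. For this early neural gene of fish the groups again did not overlap, and the log2 fold change was -1.05 ± 0.11 in mutants and -0.79 ± 0.11 in wild-type embryos (SE, edgeR adjusted p = 6.02e-08 and 2.28e-06). The maternally supplied sox19b also fell (-0.47 in mutants and -0.56 in wild-type embryos), as did sox1b (-0.66 in mutants and -0.38 in wild-type embryos). The row of sox1a had few counts, 0.978 ± 0.201 CPM in CPT-treated and 2.0 ± 0.604 CPM in DMSO mutants (SD, n = 3), and it was called in mutants (-1.04) but not in wild-type embryos (-0.46, adjusted p = 0.232). The wild-type call of sox1b was lost without wild-type CPT library 1 (-0.24, adjusted p = 0.0994). The mutant call of sox1a was lost without mutant DMSO library 2 or mutant CPT library 2 (-0.91 to -0.78, adjusted p = 0.0652 to 0.11).

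The neural progenitor gene sox3 also fell in both genotypes. sox3 had 246, 241 and 242 CPM in CPT-treated mutants, against 413, 507 and 445 CPM in DMSO mutants. Wild-type levels of sox3 were 309, 364 and 302 CPM with CPT, against 410.1, 409.9 and 369.9 CPM with DMSO. The mutant CPT libraries were the lowest of all and did not overlap with any other group. The log2 fold change was -0.90 ± 0.11 in mutants and -0.29 ± 0.11 in wild-type embryos (SE, edgeR adjusted p = 3.72e-07 and 0.0227). In wild-type embryos sox3 was no longer called without DMSO library 1 or 2, CPT library 1 or 3, or mutant CPT library 3 (-0.27 to -0.19, adjusted p = 0.065 to 0.142), and also without the filter on low counts and with only the wild-type libraries in the fit.

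The SoxB2 genes counteract SoxB1 in neural tissue, and the tested pair went opposite ways. The repressor gene sox21b had 19.8, 18.2 and 19.5 CPM in CPT-treated mutants, against 39, 38.4 and 35 CPM in DMSO mutants, with a log2 fold change of -0.97 ± 0.13 in mutants and -0.74 ± 0.13 in wild-type embryos (SE, edgeR adjusted p = 2.83e-06 and 5.32e-05). The low-count sox14, a gene of brain interneurons, had 7.77, 8.62 and 8.37 CPM in CPT-treated mutants, against 6.56, 6.0 and 6.09 CPM in DMSO mutants, and rose by 0.41 ± 0.16 in mutants and 0.60 ± 0.16 in wild-type embryos (SE, edgeR adjusted p = 0.0353 and 0.00276). CPT libraries lay below DMSO libraries for sox21b and above them for sox14. Without mutant DMSO library 2 or 3 or mutant CPT library 2 or 3, sox14 was not called in mutants (0.38 to 0.43, adjusted p = 0.0519 to 0.0932), and with library totals in neither genotype.

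Of the 5 SoxC genes, which act in differentiating neurons and their survival, 3 rose in mutants and 4 in wild-type embryos. sox4b had 146, 133 and 153 CPM in CPT-treated mutants, against 59.2, 59.2 and 52.9 CPM in DMSO mutants. Wild-type levels of sox4b were 189.7, 201 and 207 CPM with CPT, against 62, 48.2 and 54.3 CPM with DMSO. The CPT and DMSO libraries were far apart in both genotypes, and sox4b rose by 1.33 ± 0.10 in mutants and 1.86 ± 0.11 in wild-type embryos (SE, edgeR adjusted p = 1.11e-09 and 9.75e-12). sox4a had 274, 253 and 288 CPM in CPT-treated mutants, against 186, 166 and 157 CPM in DMSO mutants. Wild-type levels of sox4a were 286, 297 and 306 CPM with CPT, against 185, 159 and 169 CPM with DMSO. This duplicate rose by 0.68 in mutants and 0.79 in wild-type embryos, without overlap of CPT and DMSO libraries. The third gene to rise in both genotypes was sox12, with log2 fold changes of 0.70 in mutants and 0.77 in wild-type embryos. The row of sox11b had 849.8, 764 and 869 CPM in CPT-treated mutants, against 779, 736 and 715 CPM in DMSO mutants. It was called in wild-type embryos only (0.30, against 0.15 in mutants), and was not called without wild-type DMSO library 3 or wild-type CPT library 2 (0.25, adjusted p = 0.0828 to 0.0921), with only the wild-type libraries in the fit, or with library totals (adjusted p = 0.633). sox11a had 364, 298 and 354 CPM in CPT-treated mutants, against 368, 329.8 and 327 CPM in DMSO mutants. Wild-type levels of sox11a were 271, 389 and 309.5 CPM with CPT, against 362, 418 and 349 CPM with DMSO. The log2 fold changes of sox11a were -0.012 in mutants and -0.22 in wild-type embryos, neither called, and the wild-type value was called lower with library totals and without wild-type CPT library 2 (-0.33, adjusted p = 0.0307).

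The SoxD genes fell farthest of the Sox genes. They encode partners of Sox9 in cartilage, and Sox6 also represses slow-fibre genes in fast muscle of zebrafish. sox6 had 4.49, 1.67 and 2.57 CPM in CPT-treated mutants, against 37.3, 31.3 and 25.4 CPM in DMSO mutants. Wild-type levels of sox6 were 2.12, 3.96 and 3.46 CPM with CPT, against 27.5, 32.2 and 25.4 CPM with DMSO. CPT libraries lay below DMSO libraries in both genotypes with a wide gap, and the log2 fold change was -3.37 ± 0.27 in mutants and -3.13 ± 0.26 in wild-type embryos (SE, edgeR adjusted p = 1.59e-08 and 2.31e-08). sox5 had 14.2, 9.27 and 14.6 CPM in CPT-treated mutants, against 50.8, 47.2 and 40.9 CPM in DMSO mutants. Wild-type levels of sox5 were 16.1, 14.3 and 11.7 CPM with CPT, against 40.2, 47.7 and 39.3 CPM with DMSO. The groups did not overlap, and the log2 fold change of sox5 was -1.86 ± 0.16 in mutants and -1.60 ± 0.16 in wild-type embryos (SE, edgeR adjusted p = 4.64e-09 and 2.73e-08).

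SoxE genes, which direct neural crest and cartilage, did not move together. sox10 had 42.8, 35.4 and 40.8 CPM in CPT-treated mutants, against 65.8, 60.9 and 51.8 CPM in DMSO mutants. Wild-type levels of sox10 were 33, 42.5 and 42.5 CPM with CPT, against 56.8, 57.8 and 63.8 CPM with DMSO. The groups did not overlap, and the log2 fold change of sox10, needed for pigment cells and glia, was -0.58 ± 0.12 in mutants and -0.59 ± 0.12 in wild-type embryos (SE, edgeR adjusted p = 0.000332 and 0.000251). The duplicates of sox9, which drive cartilage and act in crest and glia, moved apart. sox9a had 60.9, 47.9 and 59.3 CPM in CPT-treated mutants, against 45, 47 and 40.6 CPM in DMSO mutants. sox9b had 63.2, 49 and 50.01 CPM in CPT-treated mutants, against 100.3, 99.9 and 86.2 CPM in DMSO mutants. The CPT libraries lay above the DMSO libraries for sox9a and below them for sox9b. Wild-type levels of sox9a were 53.7, 55.5 and 45.8 CPM with CPT, against 43.8, 42.5 and 39.3 CPM with DMSO. Wild-type levels of sox9b were 60.4, 71.1 and 68.2 CPM with CPT, against 89, 72.4 and 69.9 CPM with DMSO. In mutants sox9a rose (0.34 ± 0.11, SE, edgeR adjusted p = 0.0135) and sox9b fell (-0.82 ± 0.12, adjusted p = 7.13e-06). In wild-type embryos sox9a rose (0.30 ± 0.11, adjusted p = 0.0261) and sox9b was not called (-0.21 ± 0.12, adjusted p = 0.132). The call of sox9a was lost without mutant DMSO library 3 or mutant CPT library 1 in mutants (0.28, adjusted p = 0.0659 to 0.0744). In wild-type embryos it was lost without DMSO library 2 or 3 or CPT library 2 (0.26 to 0.31, adjusted p = 0.0515 to 0.0992), and with library totals (adjusted p = 0.658), where sox9b was called lower (-0.44). The low-count sox8b had 0.449, 0.579 and 0.955 CPM in CPT-treated mutants, against 0.797, 0.525 and 0.406 CPM in DMSO mutants, and 1.65, 1.66 and 1.38 CPM in CPT-treated wild-type embryos, against 0.751, 0.221 and 0.552 CPM in DMSO wild-type embryos. It rose in wild-type embryos (1.61 ± 0.40, SE, adjusted p = 0.00182) and was not called in mutants (0.17 ± 0.47, adjusted p = 0.776).

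Of the 3 SoxF rows, sox7 rose in both genotypes, sox32 passed the filter on low counts only through its CPT libraries, and sox17 did not pass. sox7 had 39.1, 39.6 and 35 CPM in CPT-treated mutants, against 19.9, 18.6 and 17.5 CPM in DMSO mutants. Wild-type levels of sox7 were 37.8, 49.2 and 50.5 CPM with CPT, against 16.9, 15.7 and 16.4 CPM with DMSO. The CPT libraries of sox7 lay above its DMSO libraries in both genotypes. For sox7, which acts in endothelium, the log2 fold change was 1.02 ± 0.12 in mutants and 1.49 ± 0.12 in wild-type embryos (SE, edgeR adjusted p = 4.5e-07 and 1.86e-09). The endoderm gene sox32, which in zebrafish sits above sox17, was almost silent in controls: it had 15, 23 and 8 counts in CPT-treated mutants, against 1, 2 and 0 counts in DMSO mutants, and 13, 18 and 21 counts in CPT-treated wild-type embryos, against 1, 0 and 1 counts in DMSO wild-type embryos. The ratio of summed counts over library totals was 16.95 (95% counting interval 5.45 to 85.2) in mutants and 22.8 (6.0 to 193) in wild-type embryos, and the edgeR adjusted p was 6.17e-05 and 3.12e-05. These intervals cover counting error only. No CPT library overlapped with the DMSO libraries. Because of the filter sox32 could be tested only if it was higher with CPT, so its call says nothing of the subfamily. The nearby gene sox17 was too low to test, with 9, 2 and 1 counts in CPT-treated and 3, 2 and 2 in DMSO mutants and 0, 0 and 4 counts in CPT-treated and 3, 0 and 4 in DMSO wild-type embryos. A further SoxF gene, sox18, and the SoxD gene sox13 were not analysed here.

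**Figure D2:**
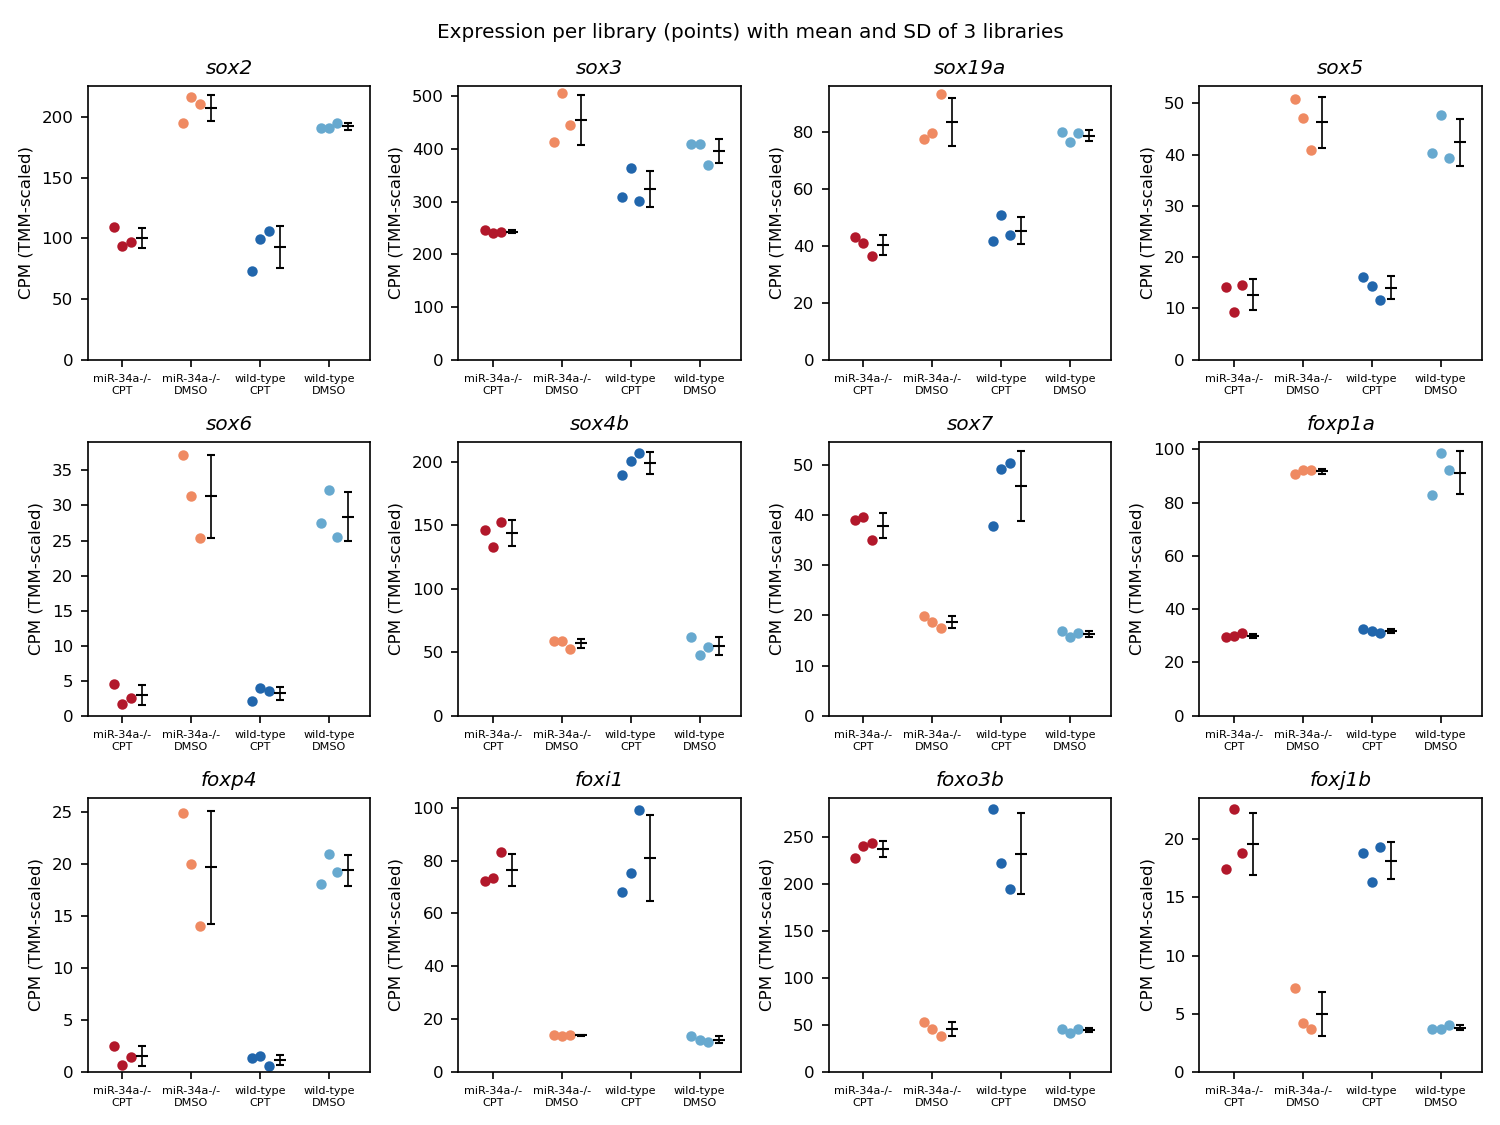
TMM-scaled CPM of 12 Sox and Fox genes in each of the 12 libraries (points), with the mean and SD of 3 libraries per group (bars), for miR-34a-/- CPT, miR-34a-/- DMSO, wild-type CPT and wild-type DMSO embryos. Levels of sox2, sox3, sox19a, sox5, sox6, foxp1a and foxp4 are lower with CPT, and those of sox4b, sox7, foxi1, foxo3b and foxj1b are higher, with no overlap of CPT and DMSO libraries within a genotype.

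Of the FoxP genes, which act in developing neurons, muscle and gut, 4 of 5 fell in both genotypes. foxp4 had 2.51, 0.644 and 1.40 CPM in CPT-treated mutants, against 24.9, 20.01 and 14 CPM in DMSO mutants. Wild-type levels of foxp4 were 1.30, 1.48 and 0.558 CPM with CPT, against 18, 21 and 19.2 CPM with DMSO. All CPT libraries lay below all DMSO libraries, and this was the largest fitted fall among the 63 tested members, a log2 fold change of -3.61 ± 0.35 in mutants and -4.16 ± 0.36 in wild-type embryos (SE, edgeR adjusted p = 3.91e-07 and 9.79e-08). foxp1a had 29.5, 29.8 and 30.9 CPM in CPT-treated mutants, against 90.7, 92.2 and 92.4 CPM in DMSO mutants. Wild-type levels of foxp1a were 32.4, 32 and 31.1 CPM with CPT, against 82.9, 98.8 and 92.2 CPM with DMSO. The CPT libraries of foxp1a lay far below the DMSO libraries in both genotypes, and the log2 fold change was -1.61 ± 0.0964 in mutants and -1.52 ± 0.0952 in wild-type embryos (SE, edgeR adjusted p = 2.38e-11 and 4.27e-11). foxp1b had 6.91, 6.31 and 5.51 CPM in CPT-treated mutants, against 36.5, 30.5 and 26.4 CPM in DMSO mutants. Wild-type levels of foxp1b were 9.09, 7.73 and 6.18 CPM with CPT, against 26.5, 34.1 and 32.6 CPM with DMSO. Without overlap of CPT and DMSO libraries, foxp1b fell, with a log2 fold change of -2.31 ± 0.17 in mutants and -2.03 ± 0.16 in wild-type embryos (SE, edgeR adjusted p = 3.78e-10 and 1.29e-09). The row of foxp2 had 2.56, 2.06 and 3.67 CPM in CPT-treated mutants, against 11, 7.71 and 6.09 CPM in DMSO mutants, and 3.36, 3.24 and 2.34 CPM in CPT-treated wild-type embryos, against 8.16, 7.504 and 7.13 CPM in DMSO wild-type embryos. The gene foxp2, known for its role in speech circuits in humans, fell in both (-1.59 in mutants and -1.36 in wild-type embryos). The fifth gene, foxp3a, whose mammalian counterpart marks regulatory T cells, had at most 0.881 CPM in any library. Its log2 fold changes were 1.35 in mutants and 1.01 in wild-type embryos, called in mutants only (adjusted p = 0.0366). Because foxp3a met the filter on low counts only with CPT libraries, it could be tested only if it was higher with CPT. The call did not hold with DESeq2, with the replicate block, or without any of the mutant DMSO libraries or mutant CPT library 1 or 3 (1.09 to 1.54, adjusted p = 0.0536 to 0.128).

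FoxO genes, the transcription factors restrained by insulin and Akt signalling, split. foxo3b had 228, 241 and 244 CPM in CPT-treated mutants, against 52.6, 45.8 and 38.3 CPM in DMSO mutants. Wild-type levels of foxo3b were 279.6, 223 and 195 CPM with CPT, against 45, 41.6 and 45.4 CPM with DMSO. The groups were separated by a wide gap and foxo3b rose by 2.38 ± 0.13 in mutants and 2.4 ± 0.13 in wild-type embryos (SE, edgeR adjusted p = 6.65e-12 and 4.93e-12). foxo1a had 1.35, 1.09 and 1.25 CPM in CPT-treated mutants, against 6.99, 4.51 and 4.67 CPM in DMSO mutants. Wild-type levels of foxo1a were 1.42, 1.48 and 1.30 CPM with CPT, against 4.69, 5.52 and 5.52 CPM with DMSO. CPT libraries lay below DMSO libraries, and foxo1a fell, with a log2 fold change of -2.11 ± 0.24 in mutants and -1.90 ± 0.23 in wild-type embryos (SE, edgeR adjusted p = 2.98e-07 and 4.91e-07). The log2 fold change of foxo6b was -0.67 in mutants and -0.71 in wild-type embryos, a call lost in mutants without mutant DMSO library 1 or 2 or mutant CPT library 2 (-0.62 to -0.44, adjusted p = 0.0682 to 0.132) and in wild-type embryos without CPT library 1 (-0.55, adjusted p = 0.0685). The duplicate foxo3a was called in mutants (0.44) but not in wild-type embryos (0.30, adjusted p = 0.0711), and the mutant call was lost without mutant DMSO library 2 or 3 or mutant CPT library 1 (0.32 to 0.38, adjusted p = 0.0584 to 0.0763). Values for foxo1b were 0.11 in mutants and 0.14 in wild-type embryos, not called. Of the genes that regulate FoxO or are known FoxO targets, 11 of 26 tested were called higher and 7 lower in mutants (median 0.31), and 11 higher and 7 lower in wild-type embryos (median 0.10). The damage-response gene gadd45aa and the sestrin sesn1, both also known p53 targets, had the smallest wild-type p among the called genes of this list, with 5.72 in mutants and 5.25 in wild-type embryos for gadd45aa and 2.18 in mutants and 2.08 in wild-type embryos for sesn1.

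Among the FoxN genes 2 of 4 fell, and foxj3 of the FoxJ genes fell too. foxn3 had 2.06, 0.837 and 0.955 CPM in CPT-treated mutants, against 8.77, 7.09 and 5.99 CPM in DMSO mutants. Wild-type levels of foxn3 were 0.767, 0.989 and 0.260 CPM with CPT, against 6.10, 8.83 and 7.90 CPM with DMSO. The groups did not overlap, and foxn3, a repressor linked to the DNA damage checkpoint, fell, with a log2 fold change of -2.42 ± 0.33 in mutants and -3.55 ± 0.35 in wild-type embryos (SE, edgeR adjusted p = 4.14e-06 and 7.27e-08). foxn4 had 17.3, 14.4 and 15.5 CPM in CPT-treated mutants, against 42.4, 35.5 and 32.6 CPM in DMSO mutants. Wild-type levels of foxn4 were 18.8, 26.7 and 22.7 CPM with CPT, against 37.1, 38.4 and 36.7 CPM with DMSO. For foxn4, a gene of retinal and spinal interneuron progenitors, CPT libraries lay below DMSO libraries in both genotypes and the log2 fold change was -1.22 ± 0.14 in mutants and -0.71 ± 0.13 in wild-type embryos (SE, edgeR adjusted p = 1.99e-07 and 9.43e-05). The thymus gene foxn1 and foxn2b had at most 1.05 and 2.64 CPM in any library and were not called. The log2 fold change of foxj3 was -1.56 ± 0.22 in mutants and -1.36 ± 0.21 in wild-type embryos (SE, edgeR adjusted p = 3.29e-06 and 1.18e-05).

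The duplicates of foxj1, the master regulator of motile cilia, differed. foxj1b had 17.5, 22.6 and 18.8 CPM in CPT-treated mutants, against 7.17, 4.20 and 3.65 CPM in DMSO mutants. Wild-type levels of foxj1b were 18.8, 16.4 and 19.3 CPM with CPT, against 3.66, 3.66 and 4.03 CPM with DMSO. CPT libraries lay above DMSO libraries, and the rise of foxj1b was 1.99 ± 0.20 in mutants and 2.26 ± 0.20 in wild-type embryos (SE, edgeR adjusted p = 3.22e-08 and 5.06e-09). foxj1a had 23.4, 18.5 and 19.6 CPM in CPT-treated mutants, against 26.7, 17.3 and 24.4 CPM in DMSO mutants. Wild-type levels of foxj1a were 21.4, 15.8 and 15 CPM with CPT, against 22.6, 19.9 and 26.4 CPM with DMSO. Here CPT and DMSO libraries overlapped in both genotypes. The log2 fold change of foxj1a was -0.14 in mutants (adjusted p = 0.478) and -0.41 in wild-type embryos (adjusted p = 0.0428), and in wild-type embryos it was not called with DESeq2, with its size factors, without the filter, or without DMSO library 1 or 3, CPT library 2 or 3, or mutant CPT library 3 (-0.42 to -0.27, adjusted p = 0.0752 to 0.221). Of the motile cilium genes, 1 of 16 tested were called higher and 7 lower in mutants (median -0.36), and 1 higher and 8 lower in wild-type embryos (median -0.60). The factor rfx2 fell (-1.41 in mutants and -1.02 in wild-type embryos), and the dynein arm gene ccdc103 rose (1.45 in mutants and 1.55 in wild-type embryos).

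The largest fitted rise among Fox genes in mutants was that of foxi1, needed for the ear placode and ionocytes. foxi1 had 72.4, 73.4 and 83.4 CPM in CPT-treated mutants, against 13.8, 13.6 and 13.9 CPM in DMSO mutants. Wild-type levels of foxi1 were 68, 75.5 and 99.3 CPM with CPT, against 13.6, 11.8 and 11.1 CPM with DMSO. CPT libraries lay well above DMSO libraries in both genotypes, and the log2 fold change was 2.47 ± 0.14 in mutants and 2.74 ± 0.14 in wild-type embryos (SE, edgeR adjusted p = 6.65e-12 and 1.39e-12). The ionocyte gene foxi3a had log2 fold changes of 0.26 in mutants and 0.43 in wild-type embryos, called in wild-type embryos only (adjusted p = 0.00685), and with library totals that call was lost (adjusted p = 0.233). The lens gene foxe3 rose in wild-type embryos (0.88) and was not called in mutants (0.33, adjusted p = 0.135). Of the other ectoderm, ionocyte, ear and lens genes, 1 of 16 tested were called higher and 8 lower in mutants (median -0.48), and 2 higher and 9 lower in wild-type embryos (median -0.48). Among them were the ear and placode gene eya1 (-3.16 in mutants and -3.17 in wild-type embryos) and the epidermal factor tp63 (-2.40 in mutants and -2.39 in wild-type embryos).

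The duplicates foxq1a and foxq1b both rose. foxq1a had 8.66, 9.59 and 12.4 CPM in CPT-treated mutants, against 4.47, 3.28 and 3.25 CPM in DMSO mutants. Wild-type levels of foxq1a were 9.97, 10.7 and 9.86 CPM with CPT, against 2.35, 3.13 and 2.84 CPM with DMSO. Without overlap between CPT and DMSO, the rise was 1.48 ± 0.19 in mutants and 1.87 ± 0.19 in wild-type embryos (SE, edgeR adjusted p = 1.41e-06 and 5.42e-08) for foxq1a, and foxq1b had log2 fold changes of 1.44 in mutants and 1.68 in wild-type embryos. The Nodal pathway partner foxh1, which acts before and during gastrulation, was low: 25, 34 and 42 counts in CPT-treated mutants, against 8, 11 and 15 counts in DMSO mutants. In wild-type embryos it had 26, 34 and 44 counts with CPT, against 4, 2 and 4 counts with DMSO. CPT libraries lay above DMSO libraries in both genotypes, and the ratio of summed counts over library totals was 3.28 in mutants (95% counting interval 2.21 to 5.00) and 9.12 in wild-type embryos (4.77 to 19.6). The fitted difference between mutant and wild-type DMSO libraries was 1.92 ± 0.56 on the log2 scale (adjusted p = 0.139, not called).

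FoxA genes of endoderm and floor plate split, with foxa2 and foxa3 higher and foxa1 lower in both genotypes. foxa2 had 37, 36.6 and 39.5 CPM in CPT-treated mutants, against 24.6, 23.5 and 26 CPM in DMSO mutants. Wild-type levels of foxa2 were 33.7, 34.8 and 41.1 CPM with CPT, against 26.3, 26.1 and 28 CPM with DMSO. CPT libraries lay above DMSO libraries, and the log2 fold change of foxa2 was 0.61 ± 0.11 in mutants and 0.45 ± 0.11 in wild-type embryos (SE, edgeR adjusted p = 6.84e-05 and 0.0012), and the wild-type call was lost with library totals (adjusted p = 0.141). Values of foxa3 were 0.51 in mutants and 0.77 in wild-type embryos and those of foxa1 -0.67 in mutants and -0.30 in wild-type embryos. In wild-type embryos foxa1 was no longer called without DMSO library 1 or 3, any of the CPT libraries, or mutant CPT library 3 (-0.29 to -0.22, adjusted p = 0.0524 to 0.122), and without the filter on low counts. Of the listed endoderm, floor plate and notochord genes, 2 of 20 tested were called higher and 9 lower in mutants (median -0.29), and 2 higher and 8 lower in wild-type embryos (median -0.21), including the axon guidance gene ntn1b (-2.85 in mutants and -2.39 in wild-type embryos) and the kidney and gut factor hnf1bb (-1.51 in mutants and -1.40 in wild-type embryos). This list holds the member sox32, which is among the higher calls in both genotypes. It met the filter on low counts only with CPT libraries, so that call had a fixed direction.

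The neural crest factor foxd3 rose while sox10 fell. foxd3 had 58.9, 74.2 and 76.1 CPM in CPT-treated mutants, against 48.6, 58.1 and 53.7 CPM in DMSO mutants. Wild-type levels of foxd3 were 76.8, 82.9 and 85.2 CPM with CPT, against 51.7, 51.5 and 46.9 CPM with DMSO. CPT libraries lay above DMSO libraries in both genotypes. The rise was 0.38 ± 0.11 in mutants and 0.71 ± 0.11 in wild-type embryos (SE, edgeR adjusted p = 0.00524 and 1.24e-05), and foxd1 and foxd2 were not called for CPT. Of the neural crest, pigment and cartilage genes, 3 of 24 tested were called higher and 16 lower in mutants (median -0.54), and 2 higher and 14 lower in wild-type embryos (median -0.46). The crest factor pax3a (-2.06 in mutants and -2.02 in wild-type embryos) and the receptor ret of enteric neurons (-1.17 in mutants and -1.13 in wild-type embryos) had the smallest wild-type p.

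Of the FoxC and FoxF genes, foxc1a fell in mutants and foxf1 in both genotypes. foxc1a had 26.6, 25.2 and 31.4 CPM in CPT-treated mutants, against 49.8, 48.5 and 37.8 CPM in DMSO mutants. Wild-type levels of foxc1a were 34.6, 39 and 39.3 CPM with CPT, against 38.9, 34.3 and 32.4 CPM with DMSO. The mutant CPT libraries lay below all others, and the wild-type groups overlapped. In mutants the somite and vessel gene foxc1a fell, with a log2 fold change of -0.71 ± 0.13 (adjusted p = 6.03e-05), and in wild-type embryos it was at 0.10 ± 0.12 (adjusted p = 0.506). With library totals the wild-type value was -0.13 (adjusted p = 0.432). The duplicate foxc1b was not called (0.12 in mutants and 0.23 in wild-type embryos), nor was foxf2a (-0.073 in mutants and -0.0070 in wild-type embryos), while foxf1 of the visceral mesoderm fell (-0.58 in mutants and -0.66 in wild-type embryos). The mutant call of foxf1 was lost without mutant DMSO library 2 or mutant CPT library 1 (-0.54 to -0.46, adjusted p = 0.0516 to 0.0808). Of the paraxial and head mesoderm genes, 4 of 15 tested were called higher and 5 lower in mutants (median -0.33), and 1 higher and 5 lower in wild-type embryos (median -0.060), including the pharyngeal gene tbx1 (-1.37 in mutants and -1.16 in wild-type embryos). The mutant shares of this list were near those of all genes tested, 28.5% higher and 31.7% lower. In wild-type embryos, with 29.1% and 31.8% over all genes, the lower share was near and the higher share below. Of the vascular genes, 3 of 19 tested were called higher and 15 lower in mutants (median -0.88), and 3 higher and 13 lower in wild-type embryos (median -1.12), led by the growth factor receptors flt4 (-2.49 in mutants and -2.60 in wild-type embryos) and kdrl (-2.58 in mutants and -2.66 in wild-type embryos). The rise of sox7 stood beside falls in most endothelial genes, and their part in it was not tested.

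The mitotic factor foxm1 was called higher in wild-type embryos and not in mutants, while most of its known targets fell. foxm1 had 73.8, 67.1 and 73.9 CPM in CPT-treated mutants, against 77.5, 64.5 and 68.4 CPM in DMSO mutants. Wild-type levels of foxm1 were 72.1, 82.1 and 86.4 CPM with CPT, against 63.4, 61.2 and 59.7 CPM with DMSO. CPT and DMSO libraries overlapped in mutants and not in wild-type embryos. Its log2 fold change was 0.032 ± 0.10 in mutants (adjusted p = 0.806) and 0.38 ± 0.10 in wild-type embryos (adjusted p = 0.00247). The wild-type rise was lost with library totals (adjusted p = 0.269), where the mutant value was -0.029. Without mutant DMSO library 2 the mutant value was -0.028. Of the FoxM1 target genes, 1 of 19 tested were called higher and 11 lower in mutants (median -0.52), and 0 higher and 12 lower in wild-type embryos (median -0.70). The log2 fold change of the mitotic kinesin gene kif20a was -2.53 in mutants and -1.96 in wild-type embryos, and that of the anaphase activator gene cdc20 was -1.92 in mutants and -1.72 in wild-type embryos.

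The FoxK genes, which act in metabolism, and foxd2 were among the 12 members called in neither genotype. foxk1 had 23.7, 21.5 and 25.5 CPM in CPT-treated mutants, against 30.2, 26.3 and 21.7 CPM in DMSO mutants. Wild-type levels of foxk1 were 31.9, 27.9 and 27.6 CPM with CPT, against 24.4, 27.5 and 29.7 CPM with DMSO. Groups overlapped, with log2 fold changes of -0.14 in mutants and 0.10 in wild-type embryos and 95% intervals of -0.42 to 0.13 and -0.17 to 0.36. With library totals the wild-type value was -0.14 (adjusted p = 0.395). For foxk2 the log2 fold changes were -0.030 in mutants and 0.21 in wild-type embryos, with intervals of -0.23 to 0.17 and 0.0061 to 0.41. The ovarian gene foxl2b was called lower in wild-type embryos only (-0.21 in mutants and -0.56 in wild-type embryos), and foxb1a lower in mutants only (-0.58 in mutants and -0.33 in wild-type embryos).

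Most neural progenitor genes outside the families were called lower too. Of the SoxB1 partners and neural progenitor genes, 2 of 24 tested were called higher and 17 lower in mutants (median -0.77), and 3 higher and 16 lower in wild-type embryos (median -0.56), with the RNA-binding protein gene msi1 (-1.47 in mutants and -1.81 in wild-type embryos) and the cadherin cdh2 (-2.12 in mutants and -1.90 in wild-type embryos) at the smallest p. Of the genes of differentiating neurons, 1 of 12 tested were called higher and 6 lower in mutants (median -0.33), and 4 higher and 5 lower in wild-type embryos (median -0.083), including elavl4 (-2.72 in mutants and -2.50 in wild-type embryos) and ebf3a (-3.70 in mutants and -3.91 in wild-type embryos). These 10 lists stand beside a background of 28.5% higher and 31.7% lower calls in mutants and 29.1% and 31.8% in wild-type embryos, and share some genes, so they are not independent of each other.

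**Figure D3:**
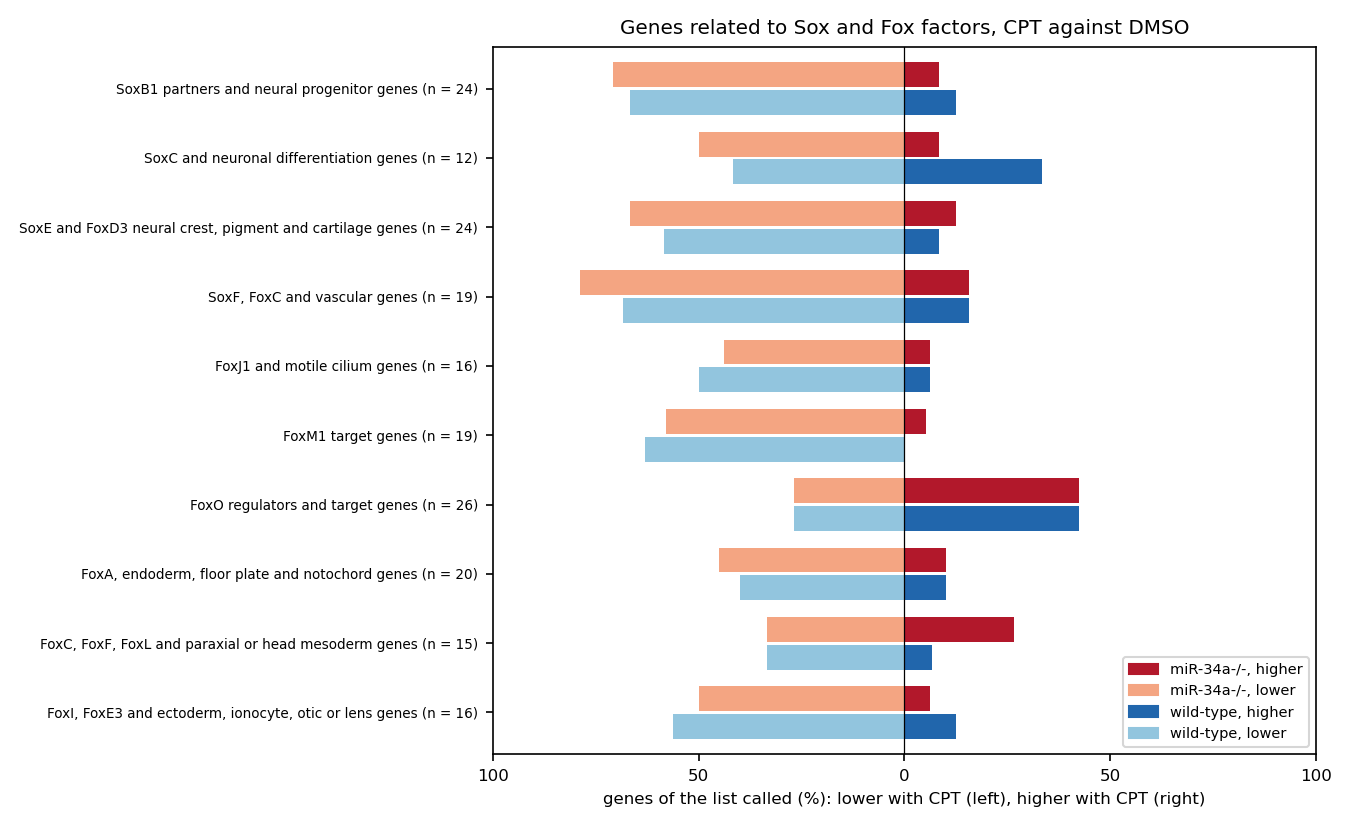
Share of genes called lower (left) and higher (right) with CPT in 10 lists of genes related to Sox and Fox factors, in miR-34a-/- (red shades, upper bar) and wild-type embryos (blue shades, lower bar), with the number tested in brackets. Lower calls outnumber higher ones in every list but the FoxO list, where 11 of 26 genes are higher and 7 lower in each genotype. They also do so over all genes tested, with 31.7% lower and 28.5% higher in mutants and 31.8% and 29.1% in wild-type embryos. The margin is narrow, 5 lower against 4 higher, for the FoxC, FoxF and FoxL list in mutants and the SoxC list in wild-type embryos.

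Duplicates of a gene could be compared within each library, where the ratio of their counts does not depend on scaling. For the 15 pairs with both genes tested, from 13 families, the log2 ratio of counts (with 0.5 added) was compared between CPT and DMSO libraries by an exact 2-sided permutation within genotypes, whose smallest possible p is 0.005. In 13 of 15 pairs the adjusted p was under 0.05, so apart from foxb1a over foxb1b the responses of these duplicates were unequal. The gene foxb1b met the filter on low counts only with CPT libraries, which favours a lower ratio with CPT. The result of that pair (adjusted exact permutation p = 0.0125) therefore gives no support. The log2 ratio of foxj1a over foxj1b was 0.065 ± 0.357 in CPT-treated and 2.22 ± 0.449 in DMSO mutants, and -0.076 ± 0.274 in CPT-treated and 2.59 ± 0.140 in DMSO wild-type embryos (SD, n = 3). The change with CPT, averaged over the genotypes, was -2.41, with an exact permutation p of 0.005 (adjusted p = 0.0075). The ratio of foxo3a over foxo3b changed by -2.02 and that of foxo1a over foxo1b by -2.12, at the same exact permutation p.

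Smaller differences held for other pairs. The log2 ratio of sox4a over sox4b was 0.92 ± 0.0137 in CPT-treated and 1.57 ± 0.0833 in DMSO mutants, and 0.57 ± 0.0156 in CPT-treated and 1.65 ± 0.0724 in DMSO wild-type embryos (SD, n = 3), and the CPT and DMSO libraries did not overlap in either genotype. For sox9a over sox9b the change with CPT was 0.83, for foxp1a over foxp1b 0.60 and for sox11a over sox11b -0.35, each with an adjusted exact permutation p of 0.0075 and no overlap of CPT and DMSO libraries in either genotype. The change was -0.41 for sox19a over sox19b (adjusted exact permutation p = 0.0125) and -0.47 for foxc1a over foxc1b (adjusted exact permutation p = 0.0288), with overlap in wild-type embryos. In 2 pairs the test missed the threshold: foxq1a over foxq1b changed by 0.12 (adjusted exact permutation p = 0.32) and sox1a over sox1b by -0.26 (adjusted exact permutation p = 0.268). The counting of reads that match both copies is not given in the sources used here, so the counts of a close pair are uncertain.

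**Figure D4:**
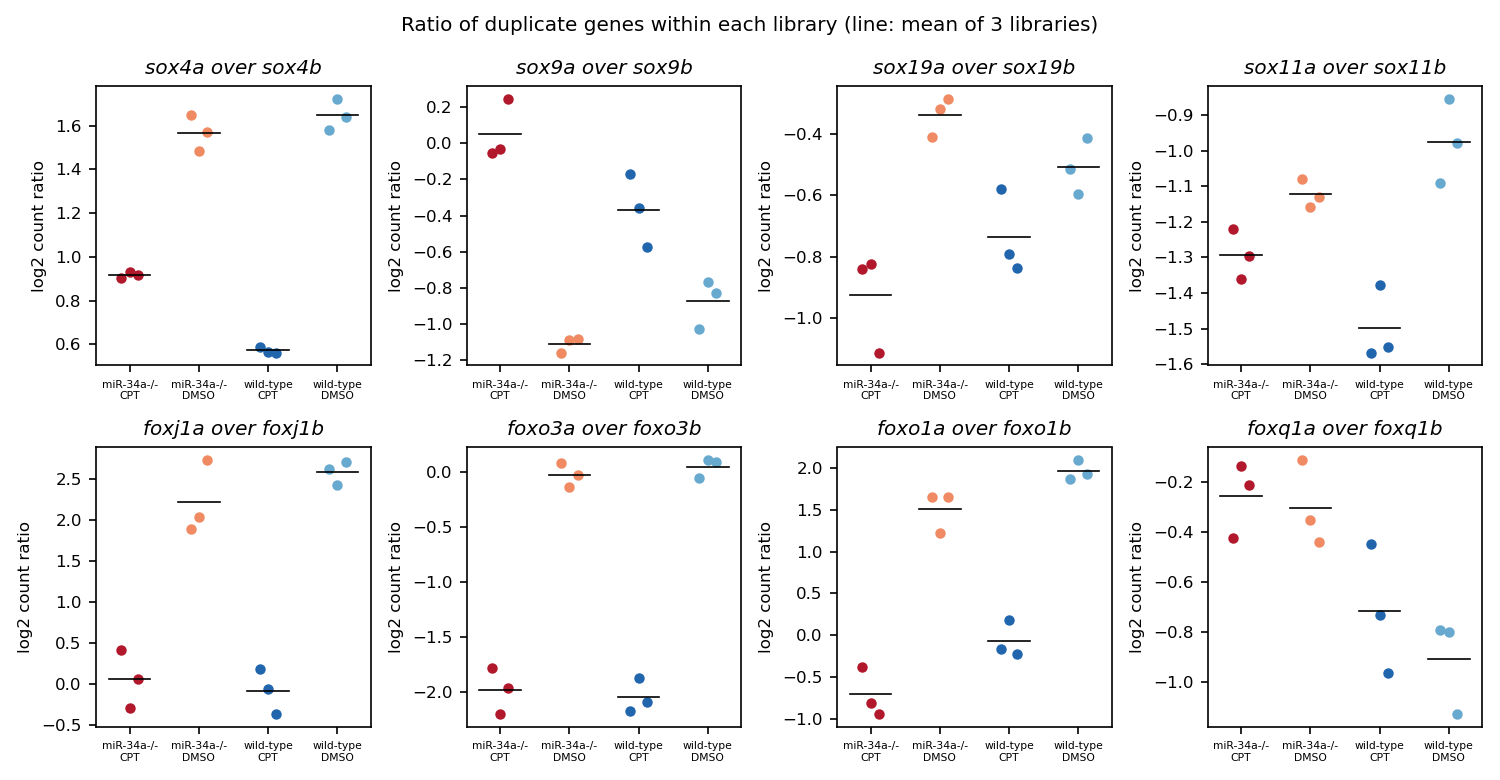
Log2 ratio of counts of 8 duplicate pairs in each library (points, with the mean of 3 as a line), for miR-34a-/- CPT, miR-34a-/- DMSO, wild-type CPT and wild-type DMSO embryos. The ratio is lower with CPT for sox4a over sox4b, foxj1a over foxj1b, foxo3a over foxo3b and foxo1a over foxo1b, higher for sox9a over sox9b, and overlaps between CPT and DMSO for foxq1a over foxq1b.

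Position was looked at through gene order in RefSeq assembly GRCz12tu, a later build than that of the counts, so no coordinates are given. All 73 members matched it, 72 by symbol and 1, foxk2, by synonym. Next to each other, or with at most 2 other genes between the outermost, lay foxc1a, foxf2a and foxq1a, foxq1b and foxc1b, sox8b and sox9b, sox17 and sox32, and foxe3 and foxd2. Some neighbours did not change alike: foxq1a was at 1.48 in mutants and 1.87 in wild-type embryos, beside -0.073 in mutants and -0.0070 in wild-type embryos for the adjacent foxf2a. In wild-type embryos foxc1a (0.098) and foxf2a were both not called, while in mutants foxc1a was called lower (-0.71) and foxf2a was not called. The value of sox8b was 0.17 in mutants and 1.61 in wild-type embryos, beside -0.82 and -0.21 for sox9b. For foxe3 it was 0.33 in mutants and 0.88 in wild-type embryos, beside -0.0015 and -0.25 for foxd2. The pair of sox17 and sox32 could not be compared, as sox17 was not tested. In the duplicate cluster foxq1b was at 1.44 in mutants and 1.68 in wild-type embryos, beside 0.12 in mutants and 0.23 in wild-type embryos for foxc1b.

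No member was called between the genotypes without CPT. Between mutant and wild-type DMSO embryos 0 of 63 members passed with edgeR, DESeq2 or limma-voom, where 0.598% of all genes were called with edgeR. An unadjusted p under 0.05 was reached by 4 members with each of the 3 tools, beside 1397 of 11866 genes with edgeR. The median difference of the members was 0.076 on the log2 scale, beside 0.015 over all genes.

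Under CPT 4 members were called between the genotypes, all lower in mutants, which is 6.35% of the members beside 3.29% of all genes called in either direction and 2.16% called lower. The mutant CPT libraries had 146, 133 and 153 CPM of sox4b, against 189.7, 201 and 207 CPM in wild-type CPT libraries, a difference of -0.47 ± 0.10 on the log2 scale (edgeR adjusted p = 0.0174). For sox3, with 246, 241 and 242 CPM in mutant CPT libraries, against 309, 364 and 302 CPM in wild-type CPT libraries, it was -0.42 ± 0.11 (adjusted p = 0.0333). The other calls were foxn4 at -0.53 ± 0.14 (adjusted p = 0.0376) and foxd1, a gene of retina and kidney stroma, at -0.51 ± 0.13 (adjusted p = 0.0371). The mutant CPT libraries had 25.4, 22.8 and 23.2 CPM of foxd1, against 32.5, 37 and 32.1 CPM in wild-type CPT libraries, and 17.3, 14.4 and 15.5 CPM of foxn4, against 18.8, 26.7 and 22.7 CPM in wild-type CPT libraries, with no overlap for either gene. The libraries of the genotypes did not overlap for any of the 4. The same holds for members that were not called, among them foxc1a, foxk1 and foxp1a (lower in mutants) and foxo1b (higher). The share without overlap over all genes was not computed for this comparison, so the lack of overlap adds no support to the calls.

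These 4 calls were small and changed with scaling and with single libraries. With library totals 0 of the 4 were called, and the differences were -0.28 for sox4b, -0.23 for sox3, -0.34 for foxn4 and -0.32 for foxd1. The median difference over all genes was 0.20 with library totals and 0.015 with TMM factors. With only the mutant and wild-type CPT libraries in the fit, 2 were called (sox4b and foxd1). Leaving out wild-type CPT library 2, mutant CPT library 1 or mutant CPT library 2 left 0 calls, and leaving out mutant CPT library 3 left 1 (sox4b). Without wild-type CPT library 1 foxd1 was lost, and foxn4 was lost without wild-type DMSO library 2 or 3 or mutant DMSO library 2. DESeq2 called 5, with foxc1a added, and limma-voom called 3, without foxn4. Over all genes DESeq2 called 677 and limma-voom 373, beside 390 in the main edgeR fit. With library totals the adjusted p of sox4b was 0.106. In the fits without 1 library that lost the call, the adjusted p was 0.0575 to 0.0978 for sox4b, 0.0977 to 0.19 for sox3, 0.0501 to 0.213 for foxn4 and 0.0634 to 0.174 for foxd1. The fold changes without 1 library stayed between -0.65 and -0.33. Within libraries, the log2 ratio of sox4a over sox4b was 0.90, 0.93 and 0.92 in mutant CPT libraries, against 0.59, 0.56 and 0.56 in wild-type CPT libraries (exact permutation p = 0.1, the smallest that 3 against 3 libraries allow). The genotypes were apart at the same exact permutation p for foxq1a over foxq1b, foxo1a over foxo1b, sox11a over sox11b and sox9a over sox9b. No gene of those pairs was called between the genotypes under CPT. The ratio therefore adds no support to the call of sox4b.

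Of the related genes, 5 of 24 SoxB1 partners and neural progenitor genes (20.8%) were called between the genotypes under CPT, 4 lower and 1 higher in mutants, beside 3.29% of all genes. How far these 5 calls depend on single libraries was not tested. Over all genes, 134 higher and 256 lower calls became 19 and 46 without wild-type CPT library 2. The proneural genes ascl1b (-0.54), ascl1a (-0.51) and neurog1 (-0.46) and the SoxB1 partner pou3f3a (-0.36) were lower, and msi1 (0.39) was higher. Without CPT 0 genes of this list were called, but mean levels of the proneural genes were lower in DMSO mutants too. They were 59.4 against 72.3 CPM in DMSO wild-type embryos for ascl1b, 47.2 against 54.3 for ascl1a and 53.7 against 71.4 for neurog1. For pou3f3a (117 against 102) and msi1 (155 against 150) they were higher. The other lists had 0 to 2 such genes each, among them the epidermal keratin krt4 with 2464 ± 30.0 CPM in mutant CPT embryos, against 4830 ± 1479 CPM in wild-type CPT embryos (SD, n = 3). Its part in the members' differences was not tested.

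The interaction asked whether the CPT response itself differed between the genotypes. No member passed with edgeR or limma-voom (0 of 63, beside 0.16% of all genes with edgeR), 14 reached an unadjusted p under 0.05 (22.2%, beside 15.1% of all genes), and DESeq2 called 3, namely foxc1a, sox3 and sox4b. Over all genes DESeq2 called 253 in the interaction. Leaving out wild-type DMSO library 1 gave 3 edgeR calls (foxc1a, sox4b and sox9b), beside 25 higher and 87 lower over all genes. Without wild-type CPT library 3 there were 2 (foxc1a and sox3), beside 171 higher and 333 lower over all genes. Only foxc1a was called without wild-type CPT library 1, beside 10 higher and 21 lower. It was also the 1 call without mutant DMSO library 3, beside 9 higher and 50 lower. The response of 47 of 63 members (74.6%) was lower in mutants than in wild-type embryos, beside 49.5% of all genes, and the median difference was -0.24, beside 0.0038 over all genes. With library totals these medians were -0.064 and 0.18. Without 1 library the median of the members ranged from -0.27 to -0.15. The members were measured in the same 12 libraries and are not replicates, so these shares and medians are descriptive and were not tested. The smallest edgeR adjusted p was that of foxc1a, whose response was -0.71 in mutants and 0.10 in wild-type embryos, a difference of -0.81 ± 0.18 (adjusted p = 0.069). Next came sox3, with a difference of -0.62 ± 0.15 (adjusted p = 0.0789), sox4b with -0.53 ± 0.15 (adjusted p = 0.1) and sox9b with -0.61 ± 0.17 (adjusted p = 0.103). A call in 1 genotype only, as for sox8b or foxm1, is therefore no shown difference: the interaction was -1.44 ± 0.62 for sox8b (adjusted p = 0.279) and -0.35 ± 0.14 for foxm1 (adjusted p = 0.242).

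**Figure D5:**
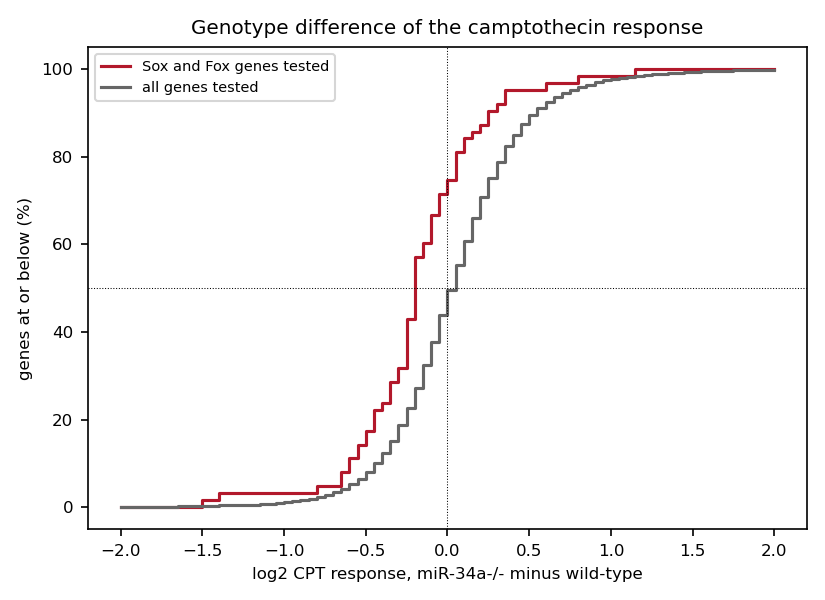
Cumulative share of the 63 Sox and Fox genes tested (red) and of all 11866 genes tested (grey) by the difference of the log2 CPT response, miR-34a-/- minus wild-type. The curve of the members lies left of that of all genes over most of the range, and 74.6% of the members are below 0, against 49.5% of all genes. The genes come from the same libraries and are not replicates, and the shift was not tested.

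The 10 members that were not tested had at most 18 counts in any library and at most 57 in all. Among them foxd5 had 0 counts in all 12 libraries, which allows up to 0.0123 CPM (3 counts over all libraries, counting error only). A single count was found for each of foxi3b, foxl1 and sox21a, and foxq2 had 4 counts in all. Another 4, foxi2, foxl2a, sox17 and sox8a, had counts in 9 to 12 libraries, for instance 4, 5 and 4 for sox8a in CPT-treated mutants, against 0, 4 and 2 in DMSO mutants.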

How the data were processed

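RNA of 12 pools of whole zebrafish embryos was sequenced on the Ion Proton after poly-A enrichment. The authors deposited 1 table of read counts per gene, with no normalization. Per the submitters' processing notes, Trim Galore 0.4.4, STAR 2.7, Bowtie2, Picard 2.5.0, HTSeq 0.9.1 and the danRer11 build were used. For the annotation, strand setting and reads that match several genes, the settings were not given in the sources used here. All 12 value columns were matched to samples by title. Library totals of 13.5 to 27.9 M counts limit the precision for rows with few counts.

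The 11866 of 15265 genes that passed filterByExpr were fitted together in edgeR 4.0.16 (R 4.3.3) with TMM factors, 4 group means and a robust quasi-likelihood test. A gene counted as called when its p, Benjamini-Hochberg adjusted over all genes tested, was under 0.05, with no fold limit. Each SE is the size of the log2 fold change divided by the square root of F. The script was tested on simulated data. Alternatives were DESeq2 1.42.0, limma-voom (limma 3.58.1), other scalings, filters and sets of libraries, the replicate number as a block, and leaving out each library.

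Members and gene lists were chosen with earlier results of these data known. Values in every library were planned per CPT comparison for the 6 members with the smallest p, the 4 largest rises and the 4 largest falls without overlap of libraries, for every member called between genotypes, and for a fixed set. In each related list the 2 called genes with the smallest p in wild-type embryos were named. Other members named in the text, and the ratios of duplicates (0.5 added to each count, 400 permutations within genotypes), were chosen after their values were seen. A few members, 1 related list and 1 gene that the rule would name are not reported here.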

Additional observations from a re-analysis of the deposited data

How the results depend on the processing

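Across the alternatives the members called with CPT ranged from 15 to 19 higher and 23 to 27 lower in mutants, and from 15 to 25 higher and 19 to 28 lower in wild-type embryos. In every alternative that tested them, 37 of 44 mutant calls and 33 of 45 wild-type calls were kept, and 0 of 4 calls between genotypes under CPT. That last count was 0 with library totals, 2 with only the groups compared in the fit and 0 to 5 without 1 library. The interaction, with 0 calls, had 3 with DESeq2, 1 without the filter and 0 to 3 without 1 library. Over all genes the interaction had 253 calls with DESeq2, and 6 higher and 29 lower without the filter. Directions changed only for uncalled values. With library totals foxc1a and foxk1 were at -0.13 and -0.14 in wild-type embryos and foxm1 was at -0.029 in mutants, and foxm1 was at -0.028 to 0.11 without 1 library, below 0 only without mutant DMSO library 2. In mutants sox11a (-0.012) was at 0.013 with DESeq2 and with its size factors, 0.021 without the filter, 0.0086 with only the groups compared and -0.069 to 0.073 without 1 library. The cause was not tested. Same-numbered libraries had correlations of -0.16 to 0.23 between their deviations from the group means, over 0.1 in 3 of 18 pairs, so the numbers were not taken as pairing. With the replicate block 17 members were higher and 26 lower in mutants, 21 and 24 in wild-type embryos, 4 were called between genotypes under CPT and 0 in the interaction. The block ended 1 named call, foxp3a in mutants (log2 fold change 1.33). Depth limits low-count rows such as sox32, foxh1, foxp3a and sox8b.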
